A study of Homo sapiens with 8 samples.

Results

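Mature miRNAs that commonly serve as internal references for RT-qPCR were followed in small RNA libraries of 2 colorectal cancer cell lines. They are 9 of the 1780 miRNA entries in the count table and were taken by name, with no threshold on their counts: hsa-miR-191-5p, hsa-miR-425-5p, hsa-miR-103a-3p, hsa-miR-107, hsa-miR-423-3p, hsa-miR-423-5p, hsa-miR-484, hsa-miR-186-5p and hsa-miR-361-5p, written below without the species prefix. DLD1 and HT29, both established lines of human colorectal adenocarcinoma, were grown for 6 days either as a monolayer (2D) or as multicellular spheroids (MCS), with 2 biological replicates of each line and culture according to the labels. For 2D, flasks received 35000 DLD1 or 100000 HT29 cells. For MCS, wells coated with 1% agarose received 7000 DLD1 or 3500 HT29 cells. DLD1 cells were kept in RPMI and HT29 cells in DMEM, and no drug, allele or other agent distinguished the groups. Version 3 of the NEXTflex small RNA kit was used for DLD1 and version 2 for HT29, so that kit and medium cannot be told apart from the cell line. Epithelial miR-200c-3p stood at 53618 CPM or more in every DLD1 library and at 10821 CPM or more in every HT29 library (CPM are counts scaled to the library total), and intestinal miR-192-5p at 753 CPM or more in DLD1 and 17996 CPM or more in HT29. Of miRNAs of other cell types, miR-451a of red cells and miR-145-5p of smooth muscle and fibroblasts did not exceed 1.01 CPM, endothelial miR-126-3p reached 94.0 CPM in DLD1 and miR-142-3p of blood cells 177 CPM in HT29.

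A mature miRNA is a short RNA cut from a hairpin precursor and loaded into an Argonaute protein, where bases 2 to 8, the seed, lead the pairing with target mRNAs. RT-qPCR expresses a miRNA of interest relative to a reference, so any change of the reference passes into every reported fold change. References are therefore picked for a level that is similar across tissues and treatments, and the miRNAs followed here are usual choices because many tissues express them.

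The RefSeq miRNA table (GRCh38.p14) matched 7 of the 9 miRNAs. Their mature sequences are shown because several of the comparisons turn on which reads can be told apart, with the seed in capitals.
miR-191-5p: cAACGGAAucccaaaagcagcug
miR-103a-3p: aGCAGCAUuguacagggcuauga
miR-107: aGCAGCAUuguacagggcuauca
miR-423-3p: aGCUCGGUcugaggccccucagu
miR-423-5p: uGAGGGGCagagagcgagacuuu
miR-484: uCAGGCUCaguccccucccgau
miR-361-5p: uUAUCAGAaucuccagggguac
miR-103a-3p and miR-107 share a seed and differ at 1 of 23 bases, G22C, counted from 1 at the 5′ end with the base of miR-103a-3p first. Each of the other 5 sequences has a seed of its own among these 7.

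The hairpins lie inside other genes, by the GENCODE annotation of GRCh37, the build the authors aligned to. MIR191 (chr3:49058051-49058142, minus strand) and MIR425 (chr3:49057581-49057667, minus strand) sit 383 bases apart, each in intronic sequence of DALRD3, and MIR191 also overlaps an intron of NDUFAF3 on the other strand. MIR103A1 (chr5:167987897-167987982, minus strand), MIR103A2 (chr20:3898141-3898218, plus strand) and MIR107 (chr10:91352500-91352586, minus strand) lie in introns of PANK3, PANK2 and PANK1, which encode pantothenate kinases of coenzyme A synthesis. MIR423 (chr17:28444097-28444190, plus strand) overlaps an exon of NSRP1, and both of its arms are among the 9. MIR484 (chr16:15737151-15737229, plus strand) overlaps an exon of NDE1. MIR186 (chr1:71533314-71533399, minus strand) lies in an intron of ZRANB2, and MIR361 (chrX:85158641-85158712, minus strand) in an intron of CHM.

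The libraries held 10495634 to 26211524 miRNA counts. Together the 9 references took 4.37% and 4.05% of the counts in DLD1 2D and 3.68% and 3.83% in DLD1 MCS. In HT29 2D they took 0.661% and 1.64%, and in HT29 MCS 0.872% and 1.74%. The 95% Wilson intervals of these shares reach from 0.656% to 0.666% for the lowest and from 4.36% to 4.38% for the highest, and cover counting error only. In HT29 the libraries numbered 1 stood apart from those numbered 2 in both cultures, with miR-10a-5p, a miRNA picked after its values were seen, at 47.3% and 38.5% of the counts in the former and at 10.6% and 6.57% in the latter. In DLD1 it held 15.2% to 19.0%. The comparison of the cultures in HT29 and that of the lines are therefore also given within the libraries of 1 number. Spreads, pair ratios, rankings and single-reference scales in HT29 span both numbers.

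In DLD1 the level of a reference was similar in all libraries for some of the 9 and not for others. The values are CPM of library totals. miR-423-3p, the dominant arm of its hairpin, stood at 2493 and 2536 CPM in 2D and at 2492 and 2386 CPM in MCS. Its highest library was 1.06 times its lowest, and its SD on the log2 scale, 0.04, was the smallest of all 346 miRNAs tested in DLD1 by library totals. miR-186-5p stood at 1889 and 1650 CPM in 2D and at 1801 and 1689 CPM in MCS, and ranked 7 of 346 by SD. miR-103a-3p stood at 11713 and 11644 CPM in 2D and at 9930 and 10586 CPM in MCS, where both libraries lay below both of 2D, and ranked 16 of 346. The remaining references were wider. miR-191-5p, an abundant miRNA of many epithelial cells, stood at 4230 and 4987 CPM in 2D and at 6919 and 5285 CPM in MCS, so that MCS lay above 2D. Its neighbour miR-425-5p, the most abundant of the 9 in DLD1, went the other way, with 21605 and 17800 CPM in 2D and 13176 and 16349 CPM in MCS. miR-361-5p stood at 436 and 483 CPM in 2D and at 664 and 643 CPM in MCS, and miR-423-5p at 151 and 170 CPM in 2D and at 242 and 196 CPM in MCS. For both, every MCS library exceeded every 2D library. miR-107, at 468 and 452 CPM in 2D and 652 and 456 CPM in MCS, and miR-484, at 730 and 814 CPM in 2D and 925 and 714 CPM in MCS, overlapped between the cultures.

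**Figure D1:**
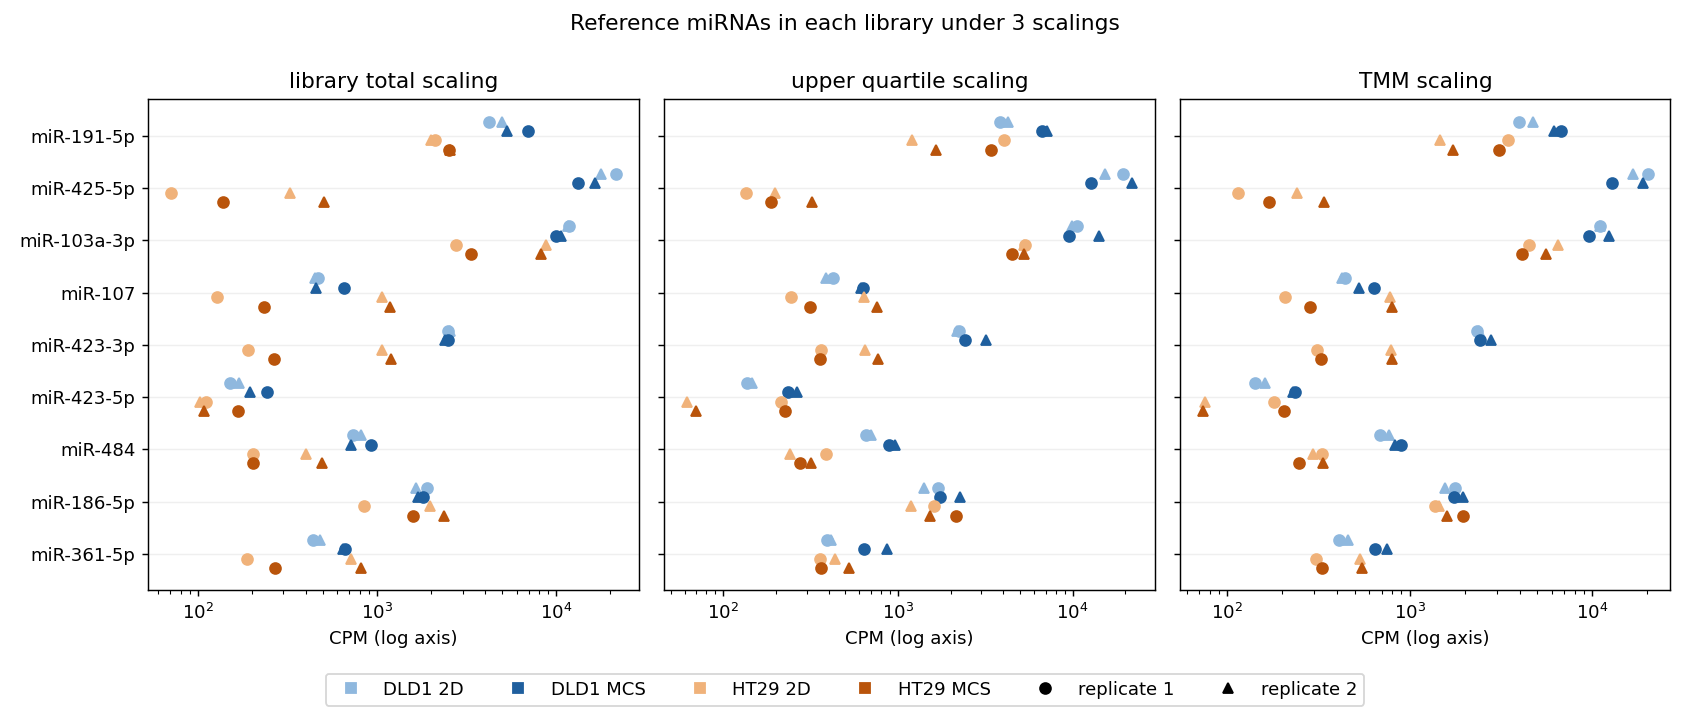
Level of each reference miRNA in each library, as CPM on a log axis, under library totals, upper quartile factors and TMM factors, with colours for line and culture and symbols for the replicate. The upper quartile and TMM factors were computed within each line, so that only the first panel sets the lines side by side, where HT29 replicates 1 and 2 of miR-107 are 8.33-fold apart in 2D and those of miR-191-5p 1.06-fold.

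Each scaling answers a different question of what is held constant. Library totals hold the sum of all miRNA counts constant, which a few abundant miRNAs set. Upper quartile factors hold the level of the upper quartile miRNA constant, and TMM factors (trimmed mean of M values) hold the trimmed mean log ratio between libraries constant. In DLD1 the median log2 difference between MCS and 2D over all 346 tested miRNAs was 0.23 with upper quartile factors, 0.02 with TMM factors and -0.14 with library totals, and the differences of the references are given beside that shift. In HT29 that median was 0.03, -0.04 and 0.19.

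The comparison of MCS with 2D asks whether a reference would hold between the cultures. The paper names upper quartile normalization. With such factors over miRNAs with at least 1 count, 4 of the 9 references rose in DLD1 MCS by at least 1.5-fold. They were miR-361-5p, miR-423-5p, miR-191-5p and miR-107, and none fell as far. Of all miRNAs tested in DLD1, 41.3% were called in either direction, 29.8% as higher and 11.6% as lower. miR-361-5p had 393 and 414 normalised CPM in 2D and 641 and 863 in MCS, a log2 difference of 0.90 ± 0.23 (SE, n = 2 against 2, Benjamini-Hochberg adjusted p = 0.000554 in the 2-sided quasi-likelihood test of edgeR). miR-423-5p, the minor arm of its hairpin, had 136 and 146 in 2D and 233 and 263 in MCS, a log2 difference of 0.81 ± 0.25 (adjusted p = 0.00329 by the same edgeR test). miR-191-5p had 3814 and 4272 in 2D and 6681 and 7086 in MCS, a log2 difference of 0.77 ± 0.25 (adjusted p = 0.00712 by the same edgeR test). For these 3 the lowest MCS library was more than 1.5 times the highest 2D library. miR-107 had 422 and 387 in 2D and 630 and 611 in MCS, a log2 difference of 0.62 ± 0.23 (adjusted p = 0.0212 by the same edgeR test).

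The other 5 references did not pass the test in DLD1. Their log2 differences were 0.45 for miR-484, 0.36 for miR-186-5p, 0.34 for miR-423-3p, 0.21 for miR-103a-3p and -0.0035 for miR-425-5p. The 95% intervals of miR-484 (-0.0030 to 0.90), miR-186-5p (-0.09 to 0.82) and miR-423-3p (-0.12 to 0.81) all included changes beyond 1.5-fold. miR-423-3p, nearly constant by library totals, here had 2248 and 2172 normalised CPM in 2D and 2407 and 3200 in MCS. miR-425-5p was not flat: its libraries had 19480 and 15248 normalised CPM in 2D and 12723 and 21921 in MCS, so that the 2 MCS libraries lay on either side of 2D. Both MCS libraries exceeded both 2D libraries for 7 of the 9 references, all but miR-103a-3p and miR-425-5p, against 45.4% of all tested miRNAs under the same factors. The median of the 9 log2 differences was 0.45, and that of all tested miRNAs 0.23.

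The calls in DLD1 moved with the scaling. The paper does not state which miRNAs its upper quartile covered. With that quartile over the tested miRNAs only, 0 of the 9 were called, against 142 of all 346 tested. The factor of DLD1 MCS replicate 2 was then 1.00, against 0.75 over all miRNAs with at least 1 count. TMM factors left 2 of the 9 called, against 39.9% of all tested miRNAs, miR-361-5p with a log2 difference of 0.68 ± 0.16 (SE) and miR-423-5p with 0.61 ± 0.16. Under TMM miR-191-5p (0.57) had an adjusted p of 0.0182 by the edgeR test but missed the 1.5-fold threshold, and miR-107 (0.42) had 0.0556. With library totals 0 of the 9 were called by edgeR's test, against 41.3% of all tested miRNAs, and the differences ran from -0.42 for miR-425-5p to 0.51 for miR-361-5p. A library factor shifts every miRNA alike, so that differences from the median of all tested miRNAs are nearly free of the scaling by construction. miR-361-5p lay between 0.65 and 0.67 above that median under the 3 scalings, miR-423-5p between 0.58 and 0.59, miR-191-5p at 0.54 and miR-107 between 0.39 and 0.41. miR-103a-3p lay between -0.05 and -0.02, the closest of the 9 to the median, followed by miR-423-3p with 0.09 to 0.12 and miR-186-5p with 0.12 to 0.13. miR-425-5p lay between -0.28 and -0.23. On the unshifted scale, miR-423-3p and miR-186-5p were higher in MCS with upper quartile and TMM factors and lower with library totals, miR-103a-3p was higher with upper quartile factors and lower with the other two, and miR-425-5p was lower with each of the 3. miR-484 was higher with each of the 3 but lower, at -0.03, when the 9 references set the scale. That scale holds the mean of the 9 constant by construction. Without replicate 1 or replicate 2 of DLD1 2D, only miR-361-5p was still called, at 0.73 and 0.81, and without either MCS library 3 references were, miR-107 being lost in each case.

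**Figure D2:**
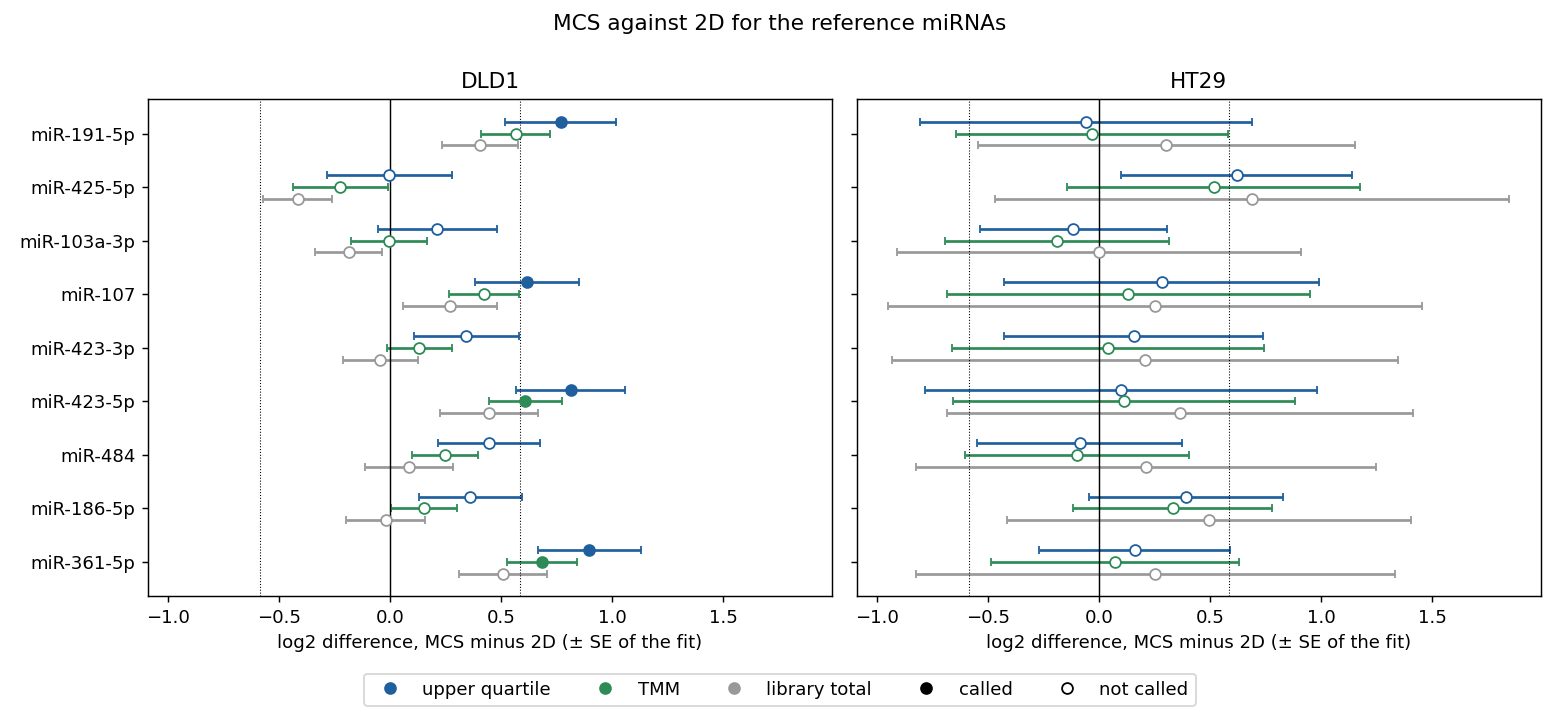
Log2 difference between MCS and 2D for each reference miRNA in DLD1 and HT29 under upper quartile, TMM and library total scaling, with the SE of the fit as bars, filled points for calls and dotted lines at 1.5-fold. In DLD1 the points shift together to the left from upper quartile to TMM to library totals, with 4, 2 and 0 calls, and in HT29 the bars are wider and no reference is called.

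In HT29, 8 of the 9 references differed more between replicates than between cultures by library totals, as did 84.1% of all tested miRNAs. The replicate difference is a mean of differences between single libraries. That between cultures is between means of 2 libraries, so the former tends to be larger by construction. On library totals miR-107 stood at 127 and 1059 CPM in 2D and at 232 and 1180 CPM in MCS, so that the libraries numbered 2 lay 8.33-fold and 5.08-fold above those numbered 1. miR-423-3p stood at 189 and 1068 CPM in 2D and 265 and 1188 CPM in MCS, and miR-425-5p at 70.3 and 327 CPM in 2D and 138 and 503 CPM in MCS. miR-361-5p stood at 188 and 719 CPM in 2D and 270 and 810 CPM in MCS. In each of these the MCS library of a given number lay above the 2D library of the same number, but well within the distance between the numbers. miR-103a-3p also lay higher in the libraries numbered 2, with 2770 and 8795 CPM in 2D and 3340 and 8212 CPM in MCS. miR-484 stood at 202 and 400 CPM in 2D and 202 and 495 CPM in MCS, and miR-186-5p at 843 and 1967 CPM in 2D and 1594 and 2365 CPM in MCS. The exceptions were miR-191-5p, with 2112 and 1996 CPM in 2D and 2510 and 2559 CPM in MCS, and miR-423-5p, with 111 and 102 CPM in 2D and 166 and 108 CPM in MCS. Neither was higher in replicate 2 of 2D than in replicate 1, while the other 7 were higher in replicate 2 of both cultures.

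Which reference looked stable in HT29 was decided by the scaling. With library totals, miR-191-5p had an SD of 0.18 on the log2 scale over the 4 libraries and ranked 8 of 301 tested miRNAs, and miR-423-5p (0.32) ranked 26, whereas miR-103a-3p (0.86) ranked 143. With upper quartile factors miR-103a-3p had 5304 and 5298 normalised CPM in 2D and 4505 and 5280 in MCS. Its SD was then 0.12 and its rank 4 of 301. Under the same factors miR-191-5p had 4043 and 1202 in 2D and 3386 and 1645 in MCS, with an SD of 0.83 and a rank of 218, and miR-423-5p (1.01) ranked 239. With TMM factors miR-484 (0.20) and miR-186-5p (0.22) had the smallest SDs of the 9, at ranks 20 and 25, and miR-107 (1.00) the largest. miR-484 ranked 48 with upper quartile factors and 98 with library totals, and miR-186-5p 71 and 94.

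**Figure D3:**
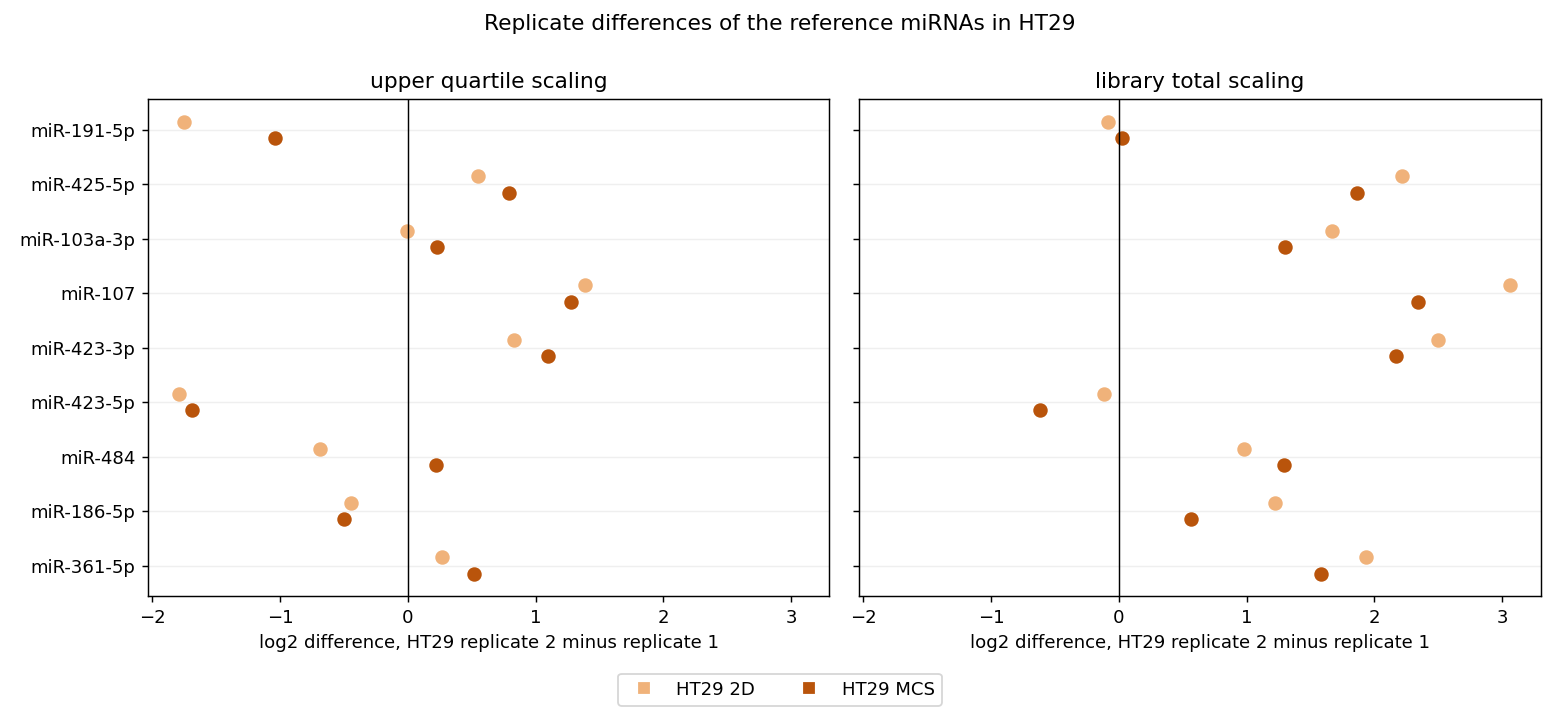
Log2 difference between HT29 replicate 2 and replicate 1 for each reference miRNA, in 2D and MCS, with upper quartile factors and with library totals. miR-191-5p and miR-423-5p lie below the other 7 in both panels, and miR-107 lies highest, at 1.39 and 1.28 with upper quartile factors and 3.06 and 2.34 with library totals.

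No reference was called between the cultures in HT29: 0 of the 9 passed edgeR's quasi-likelihood test, as did 0% of the 301 tested miRNAs. None of the 9 was called at an unadjusted p under 0.05, by DESeq2 or by edgeR's exact test, which called 12 (3.99%), 12 and 5 of all tested miRNAs. The log2 differences with upper quartile factors ran from -0.12 for miR-103a-3p to 0.62 for miR-425-5p, and the 95% interval of the latter from -0.73 to 1.97. Each of the 9 intervals included a change of 1.5-fold, in a fit that does not use the replicate number. With upper quartile factors, the mean replicate difference exceeded the difference between cultures for 8 of 9 references in HT29, against 71.4% of tested miRNAs. In DLD1 it did so for 2 of the 9, against 29.2%. Single libraries are again set against means of 2 here. Ratios of MCS to 2D were also taken within the libraries of 1 number, with the same upper quartile factors. They were 1.39 (number 1) and 1.64 (number 2) for miR-425-5p, 1.29 and 1.19 for miR-107, and 1.33 and 1.28 for miR-186-5p. The same ratios for miR-361-5p were 1.01 and 1.20, for miR-423-3p 0.985 and 1.19, and for miR-423-5p 1.06 and 1.13. For miR-103a-3p they were 0.849 and 0.997. miR-191-5p (0.837 and 1.37) and miR-484 (0.705 and 1.32) lay on opposite sides of 1, as did miR-423-3p. With TMM factors miR-191-5p (0.895 and 1.18) and miR-484 (0.753 and 1.13) still did. By library totals none of these miRNAs was lower in MCS at either number. There miR-191-5p went from 2112 to 2510 and from 1996 to 2559 CPM, and miR-484 from 202 to 202 and from 400 to 495 CPM. With upper quartile factors both MCS libraries were on the same side of both 2D libraries for 1 of the 9, miR-103a-3p, against 28.6% of tested miRNAs. The difference between the responses of the lines, tested as an interaction over all 8 libraries, was called for 0 of the 9 references and for 0% of 354 tested miRNAs by edgeR's quasi-likelihood test. At an unadjusted p under 0.05 in edgeR's test, 41 miRNAs (11.6%) passed and none of the 9 did, and DESeq2 called 20 miRNAs and none of the 9.

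A ratio of 2 references within a library does not depend on any library factor. Over the 36 pairs, the SD of the log2 ratio had a median of 0.27 in the 4 DLD1 libraries and of 0.68 in the 4 HT29 libraries. The tightest pair in DLD1 was miR-191-5p with miR-423-5p, miRNAs of different chromosomes, at 0.05, and the same pair had 0.27 in HT29. The widest pair in DLD1 was miR-191-5p with miR-425-5p, at 0.59, and their hairpins lie within the same gene. In HT29 that pair had 1.23, and the widest was miR-107 with miR-423-5p, at 1.78. The 2 arms of the miR-423 hairpin were at 0.30 in DLD1 and at 1.56 in HT29. miR-103a-3p and miR-107, with the same seed, were at 0.35 and 0.75. In HT29 miR-107, miR-423-3p, miR-425-5p and miR-361-5p kept SDs of 0.27 to 0.56 among themselves, a set picked after the values were seen, and each of them had an SD above 1 with both miR-191-5p and miR-423-5p.

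The mean of a reference's pair SDs, which corresponds to the M value used to rank references for RT-qPCR, was lowest in DLD1 for miR-423-3p (0.23), followed by miR-484 (0.23) and miR-186-5p (0.24), and highest for miR-425-5p (0.44). In HT29 it was lowest for miR-361-5p (0.58) and miR-103a-3p (0.59) and highest for miR-423-5p (1.12). miR-361-5p was thus first in HT29 and 8 of 9 in DLD1, and miR-423-3p first in DLD1 and 6 of 9 in HT29. miR-484 was the second of DLD1 and the third of HT29. With 4 libraries behind each SD these orders carry no test, and miR-423-3p and miR-484 in DLD1 had the same rounded value.

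**Figure D4:**
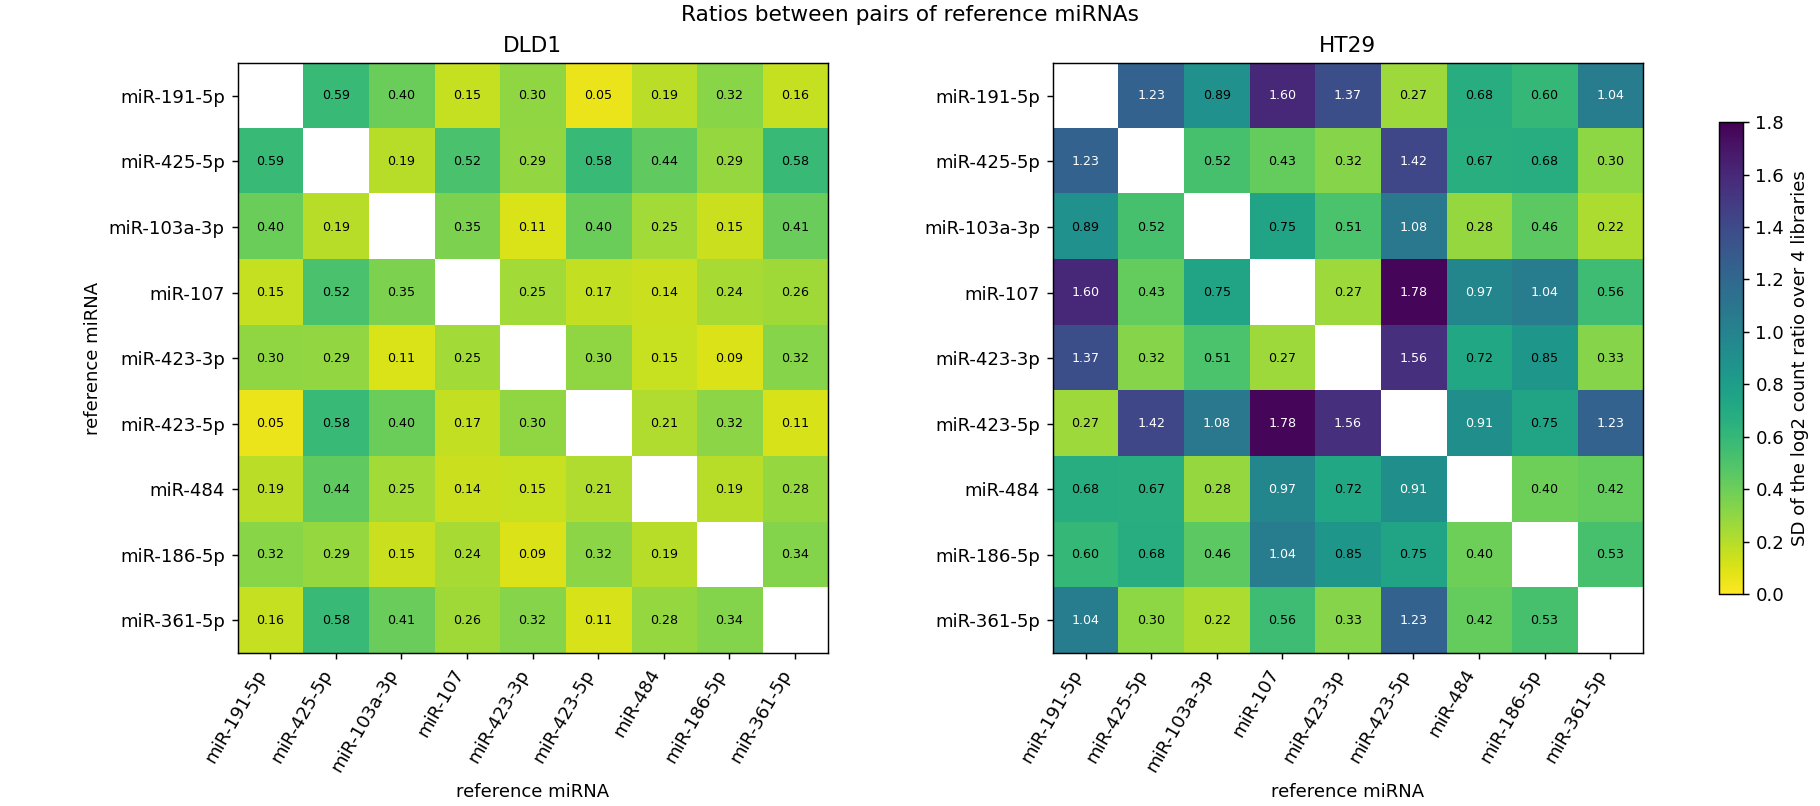
SD of the log2 count ratio of each pair of reference miRNAs over the 4 libraries of DLD1 and of HT29, on the same colour scale. In DLD1 all pairs lie at or under 0.59, and in HT29 the darkest cells, up to 1.78, are those of miR-191-5p and miR-423-5p with miR-107, miR-423-3p and miR-425-5p.

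The spread of the references was also set beside that of all tested miRNAs. In DLD1 the median SD over the 9 was 0.35 with upper quartile factors, 0.26 with TMM factors and 0.26 with library totals, and the medians over all tested miRNAs were 0.40, 0.37 and 0.41. The smallest SD among the 9 in DLD1 was 0.25, 0.11 and 0.04 in the same order. In HT29 the medians were 0.52, 0.60 and 0.86 for the references and 0.56, 0.58 and 0.90 for all tested miRNAs. Over all 8 libraries they were 0.64, 0.52 and 0.82 against 1.03, 1.02 and 1.26. The widest by far was miR-425-5p, with an SD of 3.04 over all 8 libraries with upper quartile factors, and the next was miR-423-3p with 0.91. Under these upper quartile factors miR-103a-3p (0.24) ranked 2 of 354. Scaled to library totals, it ran from 2770 CPM in HT29 2D replicate 1 to 11713 CPM in DLD1 2D replicate 1. Over the 8 libraries no reference had an SD below 0.301 if TMM set the scale, or below 0.435 if library totals did.

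Between the lines, miR-425-5p differed most. miR-425-5p was lower in HT29 by 5.63 ± 0.35 on the log2 scale (SE, 4 libraries against 4, Benjamini-Hochberg adjusted p = 1.29e-05 in edgeR's quasi-likelihood test), from 13176 to 21605 CPM of library totals in DLD1 to 70.3 to 503 CPM in HT29. In all, 4 of the 9 references were called with upper quartile factors, against 70.9% of tested miRNAs. Of these 4, 3 were lower and 1 higher, where 38.1% of tested miRNAs were lower and 32.8% higher. This balance depended on the scale: library totals gave 4 calls, all lower (against 63.6% of tested miRNAs called), and the geometric mean of the 9 gave 3 higher and 1 lower (against 67.8%). The geometric mean is set by the 9 themselves, so that the low miR-425-5p of HT29 raises the other references on it by construction. miR-191-5p was called with library totals (-1.22), miR-107 (1.497) and miR-361-5p (1.15) with the geometric mean, and miR-103a-3p (-0.78) with the upper quartile of the tested miRNAs. miR-423-3p fell by 1.47 on the log2 scale (adjusted p = 0.00402 by the same edgeR test) and miR-484 by 0.62 (0.0387), whereas miR-186-5p was higher by 0.63 (0.0373). The call of miR-423-3p was lost with TMM factors, at -1.05, and with the geometric mean of the 9, at -0.68. The calls of miR-484 and miR-186-5p were each lost without any of 6 of the 8 libraries, and their direction turned under other scalings, miR-186-5p to -0.08 with library totals and miR-484 to 0.14 when the 9 references themselves set the scale. Leaving out replicate 1 of HT29 2D gave calls for miR-191-5p at -0.82 and miR-107 at 0.99. Fits with only the HT29 libraries numbered 1 or only those numbered 2, added after seeing the data and with the spread taken from DLD1 alone, gave -6.01 and -5.31 for miR-425-5p and -2.03 and -1.04 for miR-423-3p, all called. For miR-423-5p they gave 0.98 and -0.73, calls in opposite directions, and for miR-191-5p 0.25 and -1.13, of which only the second was called. For miR-107 they gave -0.10 and 1.25, of which again the second was called. The kit version moved with the line in all of these, and its part in them was not tested.

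The opposite arms of the same hairpins add a view that no scaling enters. miR-425-5p outnumbered miR-425-3p 161-fold and 125-fold in DLD1 2D and 72.5-fold and 115-fold in DLD1 MCS, but only 1.83-fold and 1.14-fold in HT29 2D and 2.46-fold and 2.24-fold in HT29 MCS. The ranges of the lines did not come near each other. miR-361-5p outnumbered miR-361-3p 1.76-fold to 2.47-fold in DLD1 and 11.1-fold to 22.8-fold in HT29, again without overlap. Kit version and line cannot be told apart in these ratios either. miR-423-5p was the minor arm throughout, but its ratio to miR-423-3p differed between HT29 replicates: 0.586 and 0.0957 in 2D and 0.628 and 0.0911 in MCS, with 0.0607 and 0.0672 in DLD1 2D and 0.0969 and 0.0823 in DLD1 MCS. The HT29 libraries numbered 2 thus lay within reach of DLD1, and those numbered 1 did not. In DLD1 both MCS libraries exceeded both 2D libraries in this ratio. The ratio of miR-191-5p to miR-191-3p ran from 105 to 287 in DLD1 and was 1478 and 131 in HT29 2D and 729 and 248 in HT29 MCS, where miR-191-3p had 15 to 398 counts. miR-186-3p had at most 7 counts in any library, against at least 8853 of miR-186-5p. Of the passenger arms and related entries of these hairpins that were tested in DLD1, 2 of 4 were called with upper quartile factors, both higher in MCS: miR-361-3p at 1.29 and miR-425-3p at 0.59, the latter close to the 1.5-fold threshold. Of all tested miRNAs 41.3% were called, 29.8% as higher. With TMM factors or library totals 1 of the 4 was called. In HT29 0 of 4 were called by edgeR's quasi-likelihood test.

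The entry miR-103b bears on how miR-103a-3p was counted. It is the exact reverse complement of miR-103a-3p over its 23 bases, and its count was 1.05 to 1.06 times that of miR-103a-3p in all 8 libraries, from 30616 against 29077 counts to 311944 against 296668. Whether strand was used in counting is not given in the sources used here, so reads of these entries cannot be told apart. How reads matching both miR-103a-3p and miR-107 were counted is likewise not given. The ratio of miR-103a-3p to miR-107 did vary, from 15.2 to 25.7 in DLD1 and from 6.96 to 21.8 in HT29.

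**Figure D5:**
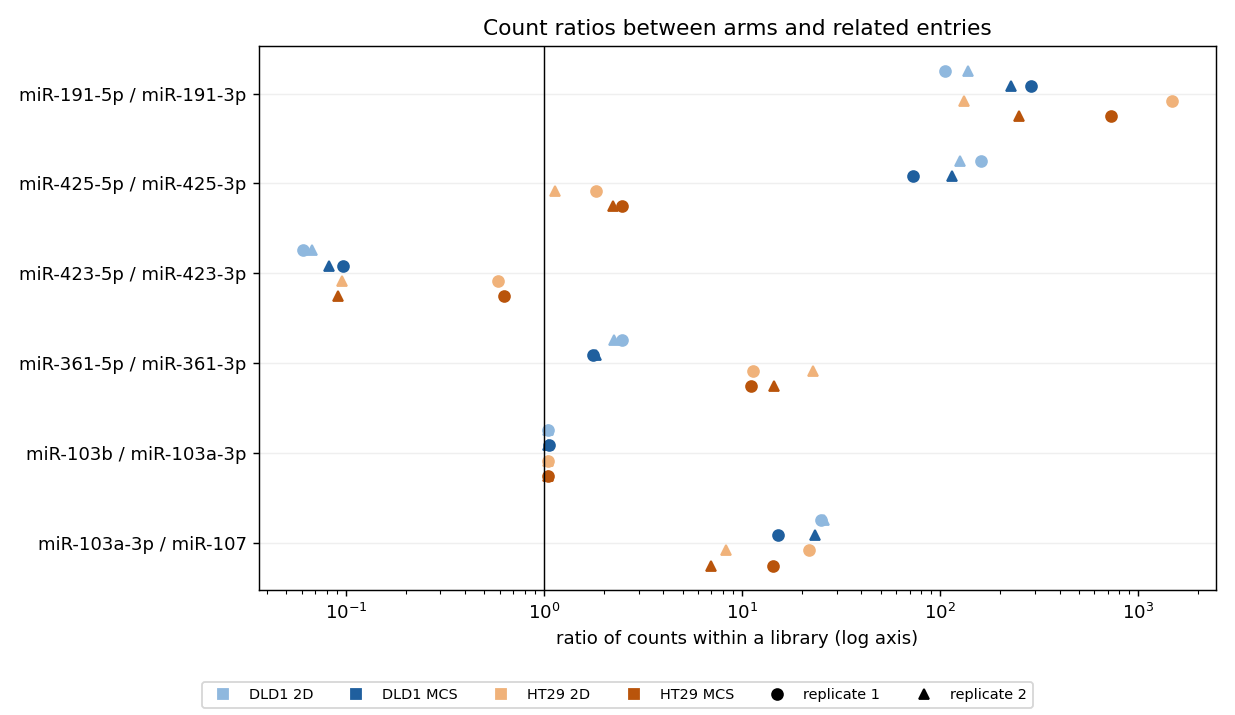
Ratio of counts within a library, on a log axis, between the arms of 4 reference hairpins, between miR-103b and miR-103a-3p and between miR-103a-3p and miR-107, for all 8 libraries. The ratio of the miR-425 arms separates the lines, which also differ in kit version. That of the miR-423 arms separates HT29 replicate 1 from the other libraries, and that of miR-103b to miR-103a-3p stays at 1.05 to 1.06.

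The choice of reference set what the whole profile would look like. Scaling DLD1 to miR-425-5p alone put the median log2 difference of the other 345 tested miRNAs at 0.28, with 124 of them at least 1.5-fold higher in MCS and 45 lower. Scaling to miR-361-5p alone put it at -0.67, with 35 higher and 182 lower. miR-103a-3p gave 0.05, with 84 higher and 74 lower, the most even split of the 9, and miR-423-3p gave -0.12, with 66 and 92. In HT29 the median ran from -0.54 with miR-425-5p, with 21 higher and 144 lower of 300, to 0.17 with miR-103a-3p, with 70 and 25. These counts are of fold changes alone, without a test. With the geometric mean of all 9 as the scale, edgeR's test called 157 miRNAs in DLD1, 50 higher and 107 lower. Upper quartile factors gave 103 higher and 40 lower, TMM factors 76 and 62, and library totals 60 and 83, so that the direction of the majority of calls depended on the scale.

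Another 12 miRNAs that are also used as references were set beside the 9. In DLD1 2 of 12 were called with upper quartile factors, let-7a-5p at 1.57 and miR-340-5p at 0.80, against 41.3% of all tested miRNAs. With library totals 3 of 12 were called, 1 higher and 2 lower. In HT29 0 of 12 were called by edgeR's quasi-likelihood test, and the differences ran from -0.44 for miR-320a to 0.75 for miR-24-3p. Their median log2 difference was 0.21 in DLD1 and 0.01 in HT29.

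The geometric mean of the 9 references was 1692 and 1719 CPM of library totals in DLD1 2D, 1942 and 1747 CPM in DLD1 MCS, 320 and 897 CPM in HT29 2D and 466 and 1048 CPM in HT29 MCS. It followed the same order as most of its members, with replicate 2 of HT29 above replicate 1. Over 250 miRNAs that averaged 10 CPM or more in each line, the pattern most like it, by the SD of the log2 ratio over the 8 libraries, was that of miR-339-3p (0.16). miR-1307-3p (0.21) and miR-93-5p (0.21) were the next outside the 9. Among the 9 themselves miR-484 was closest (0.19, rank 2 of 250), then miR-103a-3p (0.29, rank 9), while miR-425-5p (2.63) ranked 240. Each of the 9 is part of the mean it is set against, so that their ranks are not like for like with those of other miRNAs. miR-339-3p stood at 236 and 219 CPM in DLD1 2D, 228 and 240 CPM in DLD1 MCS, 41.2 and 149 CPM in HT29 2D and 61.6 and 158 CPM in HT29 MCS.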

How the data were processed

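Small RNA was sequenced from 8 libraries, 2 for each line and culture. Per the paper's methods, the authors trimmed reads with cutadapt, aligned them to GRCh37 with Bowtie2 and then to mature miRNAs of miRBase. The deposited count table is labelled as raw counts and holds 1 row per mature miRNA. The submitters' processing notes list cutadapt 1.11 and Bowtie2 2.1.0, and the paper's methods give other versions of both. Single-library and combined tables agreed in all 12572 values compared. Another 15 entries name no miRNA; they hold 2590 counts, 0.00988% of HT29 2D replicate 2, and were left out. Library totals are those of the remaining counts.

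The 9 miRNAs and the comparison and marker lists were chosen with earlier results of these data known. Counts were fitted with edgeR 4.0.16 in R 4.3.3 (quasi-likelihood test, upper quartile factors over miRNAs with at least 1 count, mean of at least 10 CPM, culture as the only term, 1 fit per line). A call needed 1.5-fold and a Benjamini-Hochberg adjusted p under 0.05 over all tested miRNAs. Line and interaction contrasts used all 8 libraries and factors computed over them. An exact permutation test of 2 against 2 cannot give a p under 0.3333, so none was used. SDs are of log2 CPM without a pseudocount, and ratios are of counts. The p-values measure the spread between these libraries, which the labels call biological replicates. The tests were tried on simulated data. Those libraries were independent, with no shift shared by replicate number, so the trial does not cover that feature of HT29.

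The miRNAs named are the 9, the 3 others most like their geometric mean, and the extremes or calls of the lists of 12 other references and 6 opposite arms or related entries. Replicate numbers are shared by the cultures, but nothing says that a number marks a shared culture day. Alternatives were TMM, DESeq2 (1.42.0) size factors or test, library totals, 2 other scales, other filters and thresholds, edgeR's exact test, 1 fit of all libraries, the replicate number as a block and each library left out. Figures were drawn with matplotlib 3.10.9.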

Additional observations from a re-analysis of the deposited data

How the results depend on the processing

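For DLD1, the 4 calls among the 9 references became 2 with TMM factors, 1 with DESeq2 and 0 with library totals, upper quartile factors over the tested miRNAs, the geometric mean of the 9 or all 8 libraries in 1 fit, and ranged from 1 to 3 with a library left out. The geometric mean holds the mean of the 9 constant, which favours small differences among them by construction. Of 346 tested miRNAs, 138 were called with TMM factors and 143 with library totals. The upper quartile of the tested miRNAs gave 142 and the geometric mean 157. The calls over all miRNAs went from 143 to 27 in 1 fit of all libraries, where the spread of HT29 enters, and ranged from 92 to 124 with a library left out, 92 being without replicate 2 of DLD1 2D. For HT29, 0 calls over all miRNAs became 12 with DESeq2, 15 without a filter, 12 at an unadjusted p, 5 with the exact test, and 0 to 2 with a library left out, 1 without replicate 1 and 2 without replicate 2 of HT29 2D. No setting gave a call among the 9 in HT29 or in the interaction. Between the lines the 4 calls became 2 with TMM factors and without a filter, and ranged from 2 to 5 with a library left out. Over all miRNAs the 251 of 354 became 231 with TMM factors. They became 123 with at least 10 CPM in every library and 586 without a filter, which change the number tested. The interaction, 0 of all miRNAs, became 2 with TMM factors, DESeq2's size factors or the geometric mean, 3 with the upper quartile of tested miRNAs, 20 with DESeq2, 21 without a filter, 41 at an unadjusted p and 0 to 4 with a library left out, 4 without replicate 2 of HT29 2D and 2 without replicate 2 of HT29 MCS. Turned directions in which a fit made a call were miR-186-5p (-0.075, library totals) and miR-484 (0.14, geometric mean) between the lines, and miR-423-5p (-0.73) with only the HT29 libraries numbered 2. Other values turned without a call on either side, among them those described for DLD1. The cause of these changes was not tested.

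With the replicate number as a block, HT29 gave calls for 47 of 301 tested miRNAs and the interaction for 44 of 354. None of the 9 was among them, which at such shares does not set the references apart. Between the lines, the block added miR-423-5p and removed miR-484. Libraries of the same number deviated together in both lines (correlation 0.32 in DLD1 and 0.79 in HT29), but they share only a number.

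The median SD of the 9 in DLD1 (0.35) was 0.22 with the upper quartile of tested miRNAs and 0.23 to 0.32 with a library left out. Their median percentile among tested miRNAs in DLD1 (44.2) was 25.1 with library totals, 29.8 with TMM factors, 20.2 with the upper quartile of tested miRNAs and 28.1 to 42.6 with a library left out. In HT29 (45.2) it was 25.2 with the upper quartile of tested miRNAs, 57.8 with DESeq2's size factors and 36.0 to 53.8 with a library left out, and over all 8 libraries (22.3) 13.8 with TMM factors and 14.8 to 25.8 with a library left out. With miR-10a-5p taken out of the totals, added after seeing the data, the median SD in HT29 was 0.63 rather than 0.86. The lowest count of any of the 9 was 738, and each group had 2 libraries.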
